A study of Mus musculus with 12 samples.

Results

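The RNA of 10 genes was described in 12 RNA-seq libraries of mouse thymus and T-cell lymphoma: Gm16572, Tuba3a, Tuba3b, Lnp1, B530045E10Rik, Ccnb3, Pet2, Nutm1, Dpep3 and Noct. They are 10 of the 50600 gene IDs in the deposited count files. They had been picked from these same data for being near 0 in control thymocytes and raised in both groups that lack Dnmt1, so their difference from controls is a description without a test. All but Noct had at most 6 reads in any control library, while Noct was well expressed there and met only the second part of the choice.

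Each of the 4 groups held 3 mice on a mixed C57Bl/6xSV/129 background. Ctrl were thymocytes of Dnmt1 fl/fl mice without Cre (males of 25, 21 and 20 wk), and KO were thymocytes of Dnmt1 fl/fl mice with Cd4-Cre (males of 20 and 21 wk and, for KO2, a female of 20 wk). ALK were T-cell lymphoma cells of mice carrying human NPM-ALK, an oncogenic fusion kinase driven by the Cd4 promoter and enhancer (males of 24, 22 and 31 wk), and ALKKO were thymocytes of mice with NPM-ALK, Dnmt1 fl/fl and Cd4-Cre (males of 25, 21 and 19 wk). Cre acts from the Cd4-expressing stage onward, so cells of other lineages in the thymus keep Dnmt1. The paper calls the samples thymocytes and tumor cells, while its methods describe RNA from homogenised tissue. Levels are therefore read here as those of bulk tissue. Since ALK samples were tumors and all others thymus, the tumor state and the intact Dnmt1 gene cannot be told apart in comparisons of ALK with KO or ALKKO. By these genotypes only KO and ALKKO carried Cd4-Cre. Carrying Cre and losing Dnmt1 therefore cannot be told apart when these groups are compared with Ctrl or ALK.

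DNMT1 is the methyltransferase that copies cytosine methylation at CG dinucleotides onto the new DNA strand after replication, and without it the marks are diluted as cells divide. Promoters of many genes used only in germ cells are methylated and silent in somatic tissues. Several of the genes described here are known from the testis: Tuba3a and Tuba3b encode alpha-tubulins, Ccnb3 the meiotic cyclin B3, Nutm1 a chromatin protein of spermatids and Dpep3 a membrane-bound dipeptidase of germ cells.

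The genes lay on 8 chromosomes of GRCm38, 2 of them on chromosome 6 and 2 on chromosome X, and 8 were annotated as protein coding. RefSeq (GRCm38.p6) promoters of 300 bases, from 250 before to 50 after the start site, were looked up by the gene symbols used here. They were found for 6 of the 10, and other names of the rest were not searched. The promoters of 4 genes are shown, from the richest to the poorest in CG, because CG is the site on which DNMT1 acts. CG dinucleotides are in capitals, and each sequence reads 5′ to 3′ on the strand of the gene: Ccnb3 at chrX:7041570-7041869 on the minus strand, Tuba3b at chr6:145615713-145616012 on the plus strand, Tuba3a at chr6:125286032-125286331 on the minus strand and Lnp1 at chr16:56927890-56928189 on the minus strand.
Ccnb3: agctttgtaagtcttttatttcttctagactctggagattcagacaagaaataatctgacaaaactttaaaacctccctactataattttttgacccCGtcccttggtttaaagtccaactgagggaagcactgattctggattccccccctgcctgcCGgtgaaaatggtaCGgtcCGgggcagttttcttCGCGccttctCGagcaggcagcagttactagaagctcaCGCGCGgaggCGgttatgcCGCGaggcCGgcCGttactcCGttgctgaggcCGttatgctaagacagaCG
Tuba3b: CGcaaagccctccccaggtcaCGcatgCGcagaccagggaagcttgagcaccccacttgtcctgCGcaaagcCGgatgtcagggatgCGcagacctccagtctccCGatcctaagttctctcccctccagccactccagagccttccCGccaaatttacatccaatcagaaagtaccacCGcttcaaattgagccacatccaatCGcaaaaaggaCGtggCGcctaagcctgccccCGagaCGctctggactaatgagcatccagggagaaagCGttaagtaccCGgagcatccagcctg
Tuba3a: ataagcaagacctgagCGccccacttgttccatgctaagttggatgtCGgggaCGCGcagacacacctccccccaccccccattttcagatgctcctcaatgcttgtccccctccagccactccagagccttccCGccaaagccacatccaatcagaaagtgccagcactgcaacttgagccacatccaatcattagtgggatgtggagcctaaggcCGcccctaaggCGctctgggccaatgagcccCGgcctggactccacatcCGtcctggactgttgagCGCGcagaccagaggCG
Lnp1: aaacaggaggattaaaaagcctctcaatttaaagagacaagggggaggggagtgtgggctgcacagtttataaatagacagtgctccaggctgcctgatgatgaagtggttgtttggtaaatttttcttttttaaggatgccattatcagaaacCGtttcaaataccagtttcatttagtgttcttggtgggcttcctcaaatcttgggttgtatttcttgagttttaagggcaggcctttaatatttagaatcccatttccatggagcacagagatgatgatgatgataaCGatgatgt

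The Ccnb3 promoter held 18 CG with an observed-to-expected ratio of 0.95, that of Tuba3b 16 (0.68), those of Tuba3a and Dpep3 12 each (0.47 and 0.46), that of Noct 7 (0.36) and that of Lnp1 2 (0.18). Over all 32851 promoters of the table the median was 7 CG (quartiles 3 and 20) with a ratio of 0.38, so 4 of the 6 were above the median, 1 was at it and 1 was below it. None of these 6 promoters reached the upper quartile. The promoters of the paralogs Tuba3a and Tuba3b were identical at 204 of 265 aligned bases (77%). On either strand, TCCCGC, a core of E2F sites, was present in both Tuba3 promoters and in 20% of all promoters of the same length. CACGTG, the E-box (7.2% of all promoters), and TGACGT, the core of the cyclic AMP response element (7.5%), were found in none of the 6 windows.

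**Figure D1:**
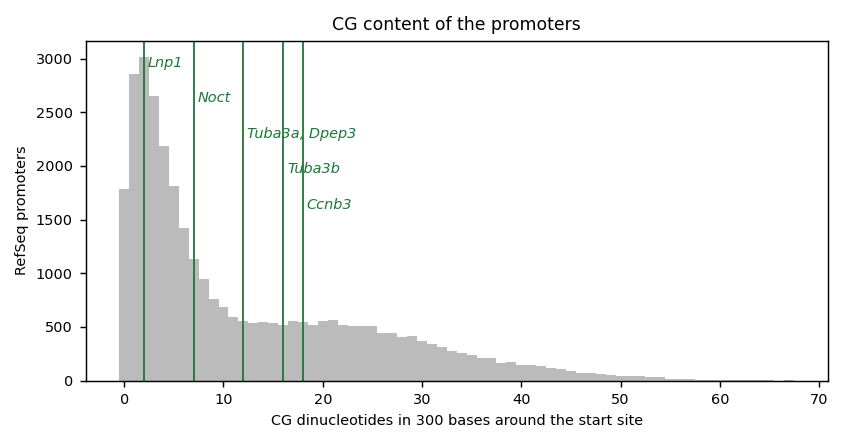
Number of CG dinucleotides (x axis) in 300 bases around the start site of 32851 RefSeq promoters (grey bars, y axis: number of promoters). Green lines mark the 6 promoters found for the set, from 2 CG in Lnp1 to 18 CG in Ccnb3, against a median of 7.

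Between 12473857 and 18864327 reads per library fell on genes (median 15262212), and levels are given as counts or as CPM, the count scaled to library size by TMM. A count of 3, taken as the floor of detection in a library, was worth 0.159 to 0.262 CPM. Dnmt1 RNA was lower in all 6 KO and ALKKO libraries (205 to 244 CPM) than in the Ctrl libraries (400.0 to 487 CPM; two-sided exact permutation test, p = 0.0238, the smallest that 6 against 3 can give), and ALK spanned 379 to 788 CPM. Summed thymocyte markers were 10460 to 12480 CPM in Ctrl, 9365 to 11050 in ALKKO, 4217 to 5331 in ALK, and 10890 and 11210 in KO1 and KO3. In thymocyte, B cell and myeloid markers KO2 stood apart from the other thymus libraries, with 4366 CPM of thymocyte markers. Its B cell markers summed to 2000 CPM against 55.1 to 96.0 in all other thymus libraries, and its myeloid markers to 2190 against 406 to 618 CPM. The separation of ALK from KO and ALKKO, and the sums and ranges of ALKKO against KO, are therefore also given without KO2. Counts of calls over all genes are also given with each library left out. KO means and ratios of single genes, levels per length, medians and profile correlations include KO2. Rag1 was at or under 3 counts in all groups, while the other 11 of the 12 thymocyte markers passed the filter on low counts. Markers of stroma and fat and of erythroid cells also differed widely among the other deleted libraries. Stroma and fat markers summed to 185 CPM in KO1 and 1366 in KO3, and to 185, 1799 and 527 in ALKKO1 to ALKKO3. Erythroid markers summed to 75.15 and 531 CPM in KO1 and KO3, and to 49.9, 612 and 572 in ALKKO1 to ALKKO3. In bulk tissue, fewer cells of a type and less RNA per cell cannot be told apart.

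Tuba3b (ENSMUSG00000067338.6, chr6:145615757-145621479, plus strand) had the highest level of the germ-cell genes. It was counted 6, 1 and 2 times in the Ctrl libraries and 2, 6 and 2 times in the ALK libraries. In KO it reached 5.46, 6.11 and 6.40 CPM, and in ALKKO 23.1, 27.5 and 17.3 CPM. All 6 Dnmt1-deleted libraries lay far above the other 6, and the KO mean of 5.99 ± 0.484 CPM (SD, n = 3) was 37.6-fold that of Ctrl. Tuba3a (ENSMUSG00000067702.5, chr6:125278274-125286042, minus strand), on the same chromosome but some distance away, followed at a lower level. It had 1 read in all Ctrl libraries together and 1 in all ALK libraries, against 12, 11 and 6 reads in KO and 43, 44 and 25 in ALKKO. Of the distinct 50-base windows of its annotated transcripts 35.3% also occurred in transcripts of other genes, mostly Tuba3b (29.5% for Tuba3b itself), so reads from those stretches could be in neither count and both levels are uncertain.

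Ccnb3 (ENSMUSG00000051592.14, chrX:6979652-7041619, minus strand) had exactly 2 reads in every Ctrl library and none in any ALK library. Its level was 1.48, 0.861 and 1.28 CPM in KO and 3.03, 2.99 and 2.30 CPM in ALKKO, with no overlap between the groups. Nutm1 (ENSMUSG00000041358.1, chr2:112247948-112259291, minus strand) had no read in any of the 6 Ctrl and ALK libraries. It was counted 13, 15 and 8 times in KO and 34, 40 and 31 times in ALKKO. Dpep3 (ENSMUSG00000031898.9, chr8:105973513-105979429, minus strand) had 1 read in Ctrl and 2 in ALK over all libraries of each group. Its counts of 17, 16 and 12 in KO and of 43, 44 and 32 in ALKKO were separated in the same way. Against the floor of 3 counts per Ctrl library, the KO means of these genes were at least 7.54-fold higher for Ccnb3, at least 5.24-fold higher for Nutm1 and at least 6.42-fold higher for Dpep3.

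Pet2 (ENSMUSG00000035395.11, chrX:89403848-89409689, minus strand), the other X-linked gene, is listed by RefSeq as Dcaf8l. No Ctrl or ALK library held a read of it. It stood at 1.43, 2.58 and 0.809 CPM in KO, the widest relative spread among KO mice in the set, and at 3.93, 5.80 and 3.26 CPM in ALKKO. Lnp1 (ENSMUSG00000109588.1, chr16:56914344-56928061, minus strand), named as a partner of NUP98 in a leukemia fusion, had 1 read in Ctrl and 1 in ALK. KO libraries held 3.71, 4.65 and 4.25 CPM, a mean of 4.20 ± 0.472 CPM (SD, n = 3), at least 26.2-fold above Ctrl. ALKKO libraries held 13.4, 7.66 and 3.39 CPM, so the third was below every KO library, the one overlap of KO and ALKKO in the set.

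The noncoding RNAs showed the same order of groups. Gm16572 (ENSMUSG00000090244.1, chr12:81587799-81589640, plus strand) is annotated as an RNA antisense to Med6, a Mediator subunit gene in which it lies. It was absent from all Ctrl libraries and had 1, 2 and 1 reads in ALK. In KO its level was 4.24, 4.39 and 3.30 CPM, at least 24.8-fold above Ctrl, and in ALKKO 15.6, 12.6 and 8.37 CPM, at least 76.1-fold above Ctrl. Med6 itself averaged 32.9 CPM in Ctrl, 27.8 in KO, 28.7 in ALK and 29.0 in ALKKO. Because the strand setting of the counting is not given in the sources used here, and 54.3% of the 50-base windows of Gm16572 are shared with the overlapping pseudogene Gm16570 (no read in any library), its level is uncertain. The long intergenic RNA B530045E10Rik (ENSMUSG00000044633.4, chr10:99298888-99423047, plus strand) had 0, 2 and 3 reads in Ctrl and 1 in each ALK library. KO libraries held 2.65, 4.13 and 2.09 CPM of it, and ALKKO libraries 10.4, 7.95 and 6.26 CPM, at least 18.4-fold and at least 51.2-fold above Ctrl.

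Noct (ENSMUSG00000023087.15, chr3:51224447-51251644, plus strand), which encodes nocturnin, a rhythmically expressed phosphatase of NADP(H), differed from the other 9 in its starting level. Its level was 59.7, 72.7 and 39.3 CPM in the Ctrl mice, and the ALK tumors held 47.8, 39.1 and 35.0 CPM. KO libraries held 195, 134 and 153 CPM, and ALKKO libraries 451, 427 and 273 CPM. The Ctrl and ALK ranges overlapped, and both lay below KO, which in turn lay below ALKKO. The ratio of means to Ctrl was 2.81 in KO and 6.70 in ALKKO, so Noct was a gene expressed in thymus and raised further, not one near 0. Of its 50-base windows 34.2% also occurred in transcripts of other genes.

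**Figure D2:**
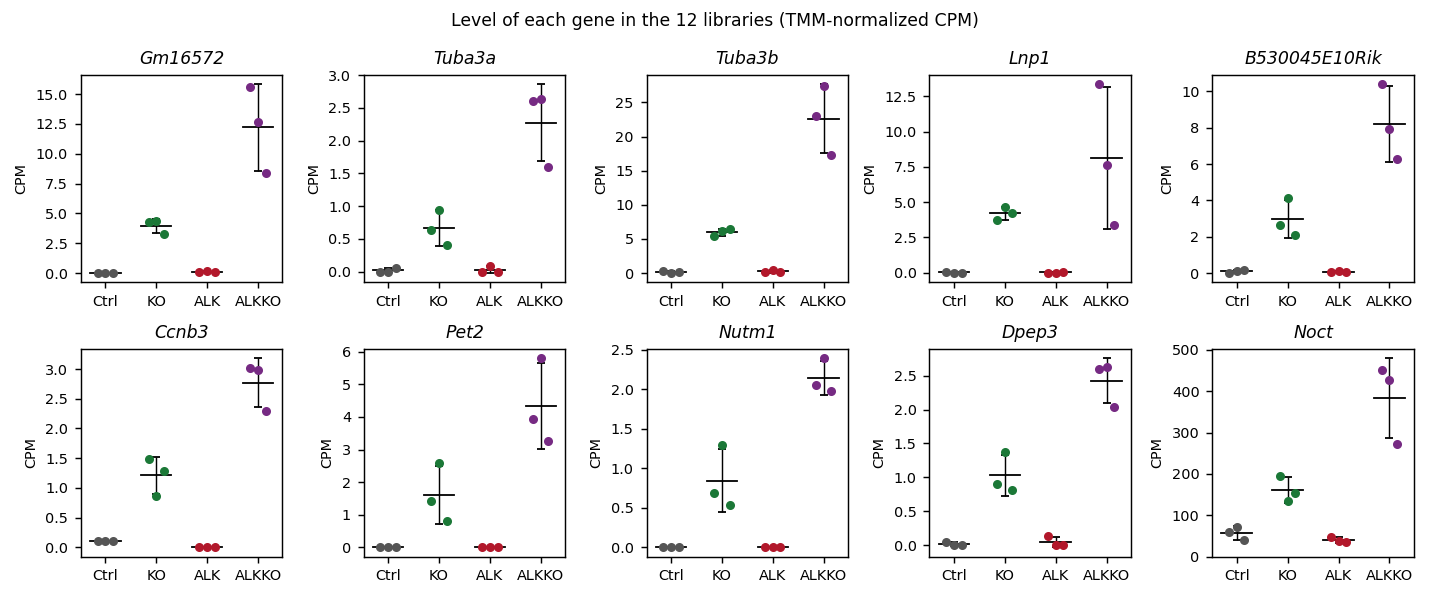
Level of each of the 10 genes (y axes: TMM-normalized CPM, linear, a different range in each panel) in the 12 libraries of Ctrl, KO, ALK and ALKKO. Points are mice, horizontal lines are group means and bars are SD (n = 3); all KO and ALKKO points lie above all Ctrl and ALK points, and Noct alone is well above 0 in Ctrl (39.3 to 72.7 CPM).

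Levels per length ranked the genes differently from plain CPM. As mean CPM per kilobase of annotated exon, KO was led by Noct (15.1) and Gm16572 (14.3), whose ranges over libraries overlapped, followed by Lnp1 (6.26) and Tuba3b (3.38). The other 6 genes lay between 0.225 (Nutm1) and 0.606 (Dpep3). In ALKKO, Gm16572 (43.7) and Noct (36.0) led again, Tuba3b (12.7) and Lnp1 (12.1) came next, and the other 6 lay between 0.575 (Nutm1) and 1.51 (Tuba3a). Levels in KO thus spanned a wide range, and most of the set stayed at low abundance even where it was highest.

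Tumors with an intact Dnmt1 gene were compared with Ctrl to ask whether the genes stay silent without deletion. The summed level of the 9 genes without Noct lay between 0.268 and 0.529 CPM in Ctrl, and between 0.391 and 0.873 in ALK. The corresponding ranges were 19.9 to 26.4 in KO and 46.5 to 76.7 in ALKKO. Every KO and ALKKO library also lay above every Ctrl library in all 10, as the choice of genes set out (2.76% of all genes tested). In all 10 genes every ALK library lay below every KO and ALKKO library, a pattern found in 17.4% of the 16052 genes tested. That it held without KO2 adds nothing, since leaving out a library cannot undo such a separation. The deleted groups were used to pick the genes, so this separation describes where ALK lies. In all, 8 genes were at or under 3 counts in every ALK library, and Ccnb3, Pet2 and Nutm1 had no read there. The exceptions were Noct, at 35.0 to 47.8 CPM, and Tuba3b, with 6 reads in the second tumor. The share of genes at the floor in Ctrl that are also at it in ALK was not computed. The count of 8 therefore cannot be called particular to the set.

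Levels near 0 in Ctrl were part of how the genes were picked, so their calls between ALK and Ctrl are a description and support nothing. Calls were made by edgeR's quasi-likelihood test, adjusted after Benjamini and Hochberg over all genes, at an adjusted p under 0.05 and a log2 fold change beyond 1. Of the set, 1 gene was called higher (8.41% of all genes tested) and 1 lower (12% of all genes tested). They were Gm16572, with 4 reads in ALK and none in Ctrl, and Ccnb3, with no read in ALK and 6 in Ctrl. Both groups were at the floor in both genes, so no fold is given, and each call was lost without any 1 of the Ctrl libraries, for Gm16572 also without ALK2 and for Ccnb3 without any 1 ALK library. Noct had a log2 fold change of -0.49 in ALK (SE 0.261) and was not called. The calls that rested on a few reads thus depended on single libraries, and other differences of a few reads could be missed at this depth. Thymocyte markers were lower in ALK as a sum, and 4 of the 11 tested were called lower (12% of all genes tested). Ptcra went the other way (mean 200 CPM in ALK, 47.6 in Ctrl, not called), and Dntt was similar (1867 and 1910 CPM). Thymic epithelium markers summed to 70.6 to 305 CPM in ALK against 837 to 898 CPM in Ctrl. B cell markers summed to 2.27 to 9.85 CPM against 59.2 to 96.0 CPM. The part of cell content in the ALK levels was not tested.

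**Figure D3:**
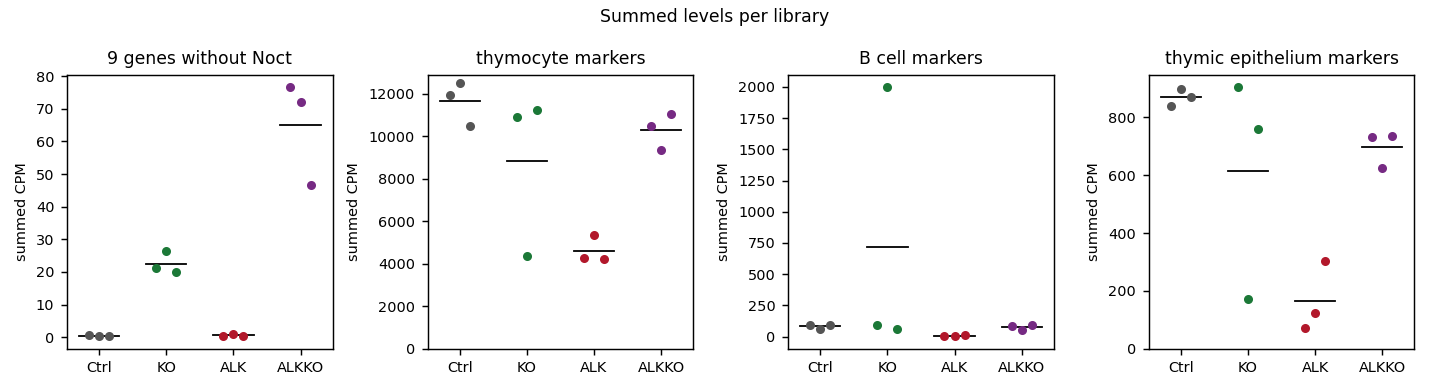
Summed CPM per library (y axes, linear, different ranges) of the 9 genes without Noct and of the markers of thymocytes, B cells and thymic epithelium, in Ctrl, KO, ALK and ALKKO. Points are mice and lines are means; the 9 genes sum to at most 0.873 CPM in any Ctrl or ALK library and to at least 19.9 CPM in KO and ALKKO, and KO2 is the library at 2000 CPM of B cell markers.

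All 10 genes were higher on average in ALKKO than in KO, the comparison of Dnmt1-deleted thymus with and without NPM-ALK. The choice of genes used the levels in both groups, though not their difference, so the values are a description. Ratios of mean CPM ran from 1.94 (Lnp1) to 3.77 (Tuba3b), and the 9 genes without Noct summed to 65.1 ± 16.3 CPM in ALKKO and 22.5 ± 3.42 CPM in KO (SD, n = 3), a ratio of 2.896, or 3.17 without KO2. In 9 of the 10 genes, all but Lnp1, every ALKKO library lay above every KO library, which was true of 4.09% of all genes tested. The count was the same without KO2, whose removal could not have lowered it. The median log2 fold change was 1.40 over the set and -0.02 over all genes tested.

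None of the 10 passed edgeR's test after adjustment in this comparison (adjusted p 0.990 to 0.9998), in which 1 of 16052 genes (0.00623%), Alk itself, was called. The unadjusted p was under 0.05 in 8 of the 10, all but Lnp1 and Dpep3, where 0.941% of all genes tested were higher in ALKKO at that level; since both groups had served to pick the genes, this count is no support. The log2 fold change was 1.92 for Tuba3b (SE 0.515), 1.62 for Gm16572 (SE 0.407) and 1.25 for Noct (SE 0.263). With DESeq2's Wald test, these 3 were called (adjusted p = 7.51e-06, 0.0179 and 0.0101 by DESeq2, in the same order), of 24 genes it called in all. Because of the choice of genes, these calls are no support either. Lnp1 had the smallest value, 0.95 (SE 0.642), and 0.40 without ALKKO1. The direction was upward for every gene of the set under each alternative that gave a value for it. Dnmt1 itself was not called between KO and ALKKO by edgeR (log2 fold change -0.04, SE 0.225, adjusted p = 0.9998), and the group means were 0.518 and 0.504 of that of Ctrl.

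**Figure D4:**
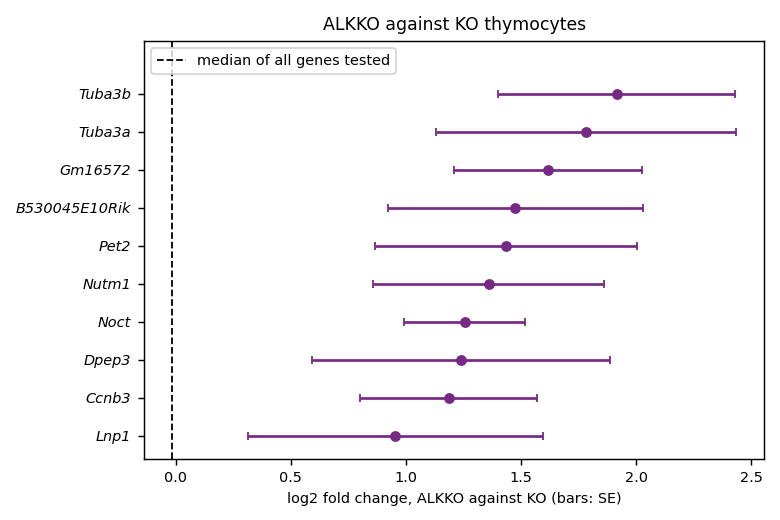
Log2 fold change of ALKKO against KO (x axis, edgeR; bars: SE) for each gene of the set, with the median of all 16052 genes tested as a dashed line at -0.02. All 10 genes lie to the right of that line, from 0.95 in Lnp1 to 1.92 in Tuba3b, and none passed the adjusted test.

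The positions of single libraries within their groups were also compared over the genes. The third ALKKO mouse, the youngest of its group at 19 wk, had the lowest level of the 3 in all 10 genes, a position it held in 22.1% of all genes tested. Its sum over the 9 genes was 46.5 CPM, against 76.7 and 72.1 CPM in ALKKO1 and ALKKO2, and its Dnmt1 level was the highest of the group (244 CPM against 205 and 222). Its thymocyte markers, 11050 CPM, were also the highest of the group; the part of age, Dnmt1 and cell content was not tested. ALKKO1 was the highest of all 12 libraries in 5 genes and ALKKO2 in the other 5. In KO, KO2 was the highest of its group in 7 of the 10 genes, a position it held in 40.8% of all genes tested, and it had the highest sum over the 9 genes (26.4 CPM) with the fewest thymocyte markers. Noct and Ccnb3 went the other way, with KO2 lowest at 134 and 0.861 CPM. Over the 6 deleted libraries, the 45 pairs of genes had Pearson correlations of log2(CPM + 0.5) from 0.553 to 0.991 (median 0.904). In this description the difference between KO and ALKKO, the libraries and their scaling are shared by all pairs. It therefore does not show variation within a group.

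Neighbouring genes were then examined. Within 50000 bases of the 10 genes lay 49 others, of which 28 passed the filter, and by edgeR 0 of the 28 were called between Dnmt1-deleted libraries and Ctrl (background 0.0561% of all genes tested), with 2 at an unadjusted p under 0.05. Their median log2 fold change was -0.04. These were Gm16156 near Dpep3 (log2 fold change 1.21, SE 0.472, adjusted p = 0.988 by edgeR) and 4930577N17Rik near Noct (0.98, SE 0.432, adjusted p = 0.988 by edgeR), both at or under 1.09 CPM in every Ctrl, KO and ALKKO library. Elf2, an ETS-family transcription factor gene 1076 bases from Noct, averaged 167 CPM in Ctrl, 149 in KO and 168 in ALKKO. Lpcat4, 837 bases from Nutm1, averaged 27.1, 20.7 and 20.0 CPM in the same groups, and Dpep2, a relative of Dpep3 at a distance of 5515 bases, 0.872, 1.07 and 0.943 CPM. The antisense partner of Tuba3a, 4930417O13Rik, averaged 43.7 CPM in Ctrl, 44.7 in KO, 44.1 in ALKKO and 8.74 in ALK.

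Lmntd1, the 1 neighbour of Tuba3b in that distance (1438 bases), was uneven in KO. Its level was 0.742, 0.0861 and 9.98 CPM in KO1, KO2 and KO3, and 0.419 to 0.666 CPM in ALKKO against 0.264 to 0.377 CPM in Ctrl. A single library, KO3, therefore carried its mean. In ALK against Ctrl, 8 of the 28 neighbours were called, 2 higher and 6 lower, near the 20.4% of all genes tested. Dus2 near Dpep3 was the higher of the upward ones (69.8 CPM in ALK, 21.0 in Ctrl), and Scnn1a near Tuba3a was among those lower (1.94 CPM in ALK, 43.0 in Ctrl).

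**Figure D5:**
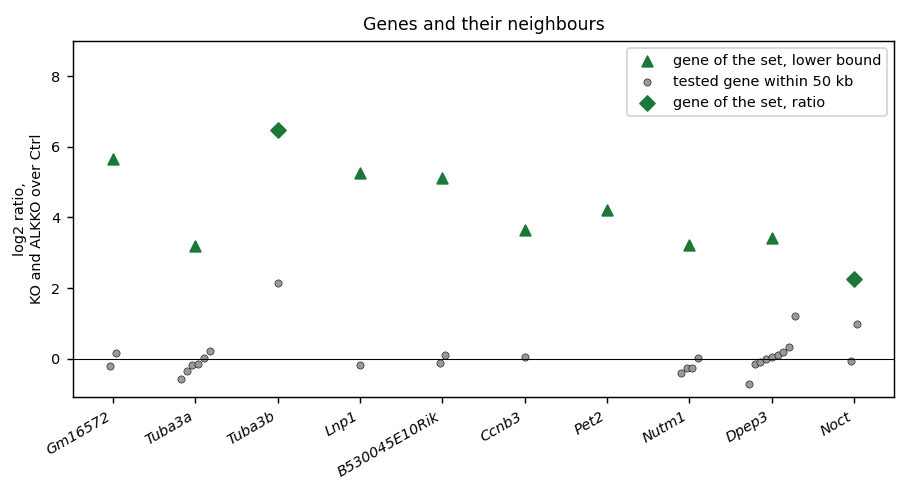
Genes of the set and their neighbours in KO and ALKKO against Ctrl (y axis: log2). Triangles are lower bounds of the ratio of mean CPM against 3 counts per Ctrl library, diamonds the ratio itself (6.49 for Tuba3b, 2.25 for Noct), and grey points edgeR's log2 fold changes of the 28 tested genes within 50000 bases; apart from Lmntd1 beside Tuba3b (2.14), no grey point exceeds 1.21.

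Other genes of germ cells were examined in a list of 38, of which 18 passed the filter. By edgeR 0 were called in Dnmt1-deleted libraries against Ctrl, with 5 at an unadjusted p under 0.05 (4.34% of all genes tested), of which Tex11 was lower (log2 fold change -1.39) and 4 were higher. DESeq2 called 2 of the list higher, of 67 genes it called in all. The median log2 fold change was 0.38 over the 18 and 0.04 over all genes tested. Dazl, an RNA-binding protein of germ cells, came closest to the set. Its level was at or under 3 counts in Ctrl, 2.54, 6.72 and 2.56 CPM in KO and 8.72, 11.5 and 9.90 CPM in ALKKO, while the tumors held 0.470, 0.0873 and 0 CPM. It was the 1 gene of the list called in ALKKO against Ctrl (adjusted p = 0.0317 by edgeR; 0.174% of all genes were called higher). Syce1, a protein of the synaptonemal complex, averaged 0.143 CPM in Ctrl, 1.34 in KO, 0.0261 in ALK and 2.44 in ALKKO (adjusted p = 0.106 by edgeR for the deleted libraries against Ctrl). The other 20 genes of the list failed the filter, and none of those exceeded 30 reads in any library. In ALK against Ctrl 5 of the 18 were called, beside 20.4% of all genes tested: Tex15 (1.71 CPM in Ctrl, 16.1 in ALK) and Stra8 (0.821 and 6.78 CPM) higher, and Tex11, Slc25a31 and Stag3 lower.

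A list of 23 genes covered DNA methylation and other gene silencing, such as histone methyltransferases and Polycomb partners. By edgeR it showed 0 calls in the deleted libraries against Ctrl, with 4 at an unadjusted p under 0.05 (4.34% of all genes tested). These were the deleted gene Dnmt1 itself (log2 fold change -0.97, adjusted p = 0.179 by edgeR), Trim28 (-0.36), Setdb1 (-0.28) and Zbtb38 (0.69). In ALK against Ctrl 4 of the 23 were called, a share no higher than the 20.4% of all genes tested. The de novo methyltransferase gene Dnmt3b (9.02 CPM in Ctrl, 29.3 in ALK), the demethylation enzyme gene Tet1 (27.3 and 75.5 CPM) and Zbtb38, which encodes a reader of methylated DNA (35.7 and 123 CPM), were called higher, and Dnmt3l lower (0.804 and 0.0261 CPM). Uhrf1, the partner that brings DNMT1 to newly copied DNA, averaged 268 CPM in Ctrl, 183 in KO, 391 in ALK and 237 in ALKKO and was not called. Among 13 tested relatives of the set, such as other alpha-tubulins and B-type cyclins, 0 were called in the deleted libraries by edgeR, with 1 at an unadjusted p under 0.05. The ubiquitous alpha-tubulin gene Tuba1b averaged 83.4 CPM in Ctrl, 56.3 in KO and 62.8 in ALKKO, and the mitotic cyclin gene Ccnb2 121, 98.4 and 114 CPM.

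The whole table was scanned for genes like the set with cut-offs chosen here, which are not the rule by which the set had been picked. The numbers found depend on these cut-offs. At most 3 counts in every Ctrl library together with at least 1 CPM in every KO and ALKKO library was met by 5 genes, of which 3 were Gm16572, Lnp1 and B530045E10Rik and the others Dazl and Clvs1. With 0.5 CPM in place of 1 the number was 16, of which 7 belonged to the set. Tuba3a fell just outside (0.404 CPM in KO3), as did Tuba3b (6 reads in Ctrl1), and Noct fell far outside. Clvs1, which encodes a clavesin, was not silent in every tumor, with 30 reads (2.62 CPM) in ALK2 and none in the other two. Of the 16, 13 were at or under 3 counts in all ALK libraries.

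Genes with the profile most like the set were ranked by Pearson's r of log2(CPM + 0.5) over the 12 libraries with the mean standardized profile of the 10. Among 14159 candidates 17 (0.120%) had r above 0.9, and the 8 highest were Serpinb1c (0.989), Dazl (0.98), Pgbd5 (0.98), Cfap97d2 (0.967), Cfap61 (0.962), Gpat2 (0.958), Syce1 (0.948) and Gh (0.94). Serpinb1c, a serine protease inhibitor gene, averaged 0.0898 CPM in Ctrl, 3.85 in KO and 9.19 in ALKKO, and was listed at 0 in all ALK libraries. Gpat2, an acyltransferase gene known from male germ cells, averaged 0.462 CPM in Ctrl, 2.62 in KO, 0.0709 in ALK and 5.59 in ALKKO. Gh, the growth hormone gene, had a higher level than these (15.9 CPM in KO and 18.6 in ALKKO, 0.375 in Ctrl and 0.229 in ALK), and its KO and ALKKO ranges overlapped. The ratio of its ALKKO to its KO mean was 1.165. For Gh too, carrying Cre and losing Dnmt1 cannot be told apart.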

How the data were processed

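RNA and DNA came from homogenised thymus or tumor tissue of 3 mice per group. The authors sequenced stranded poly(A) libraries from one end, trimmed reads with Trim Galore (FastQC for quality), aligned them to mm10 with STAR and deposited the raw HTSeq count of each gene, without normalization. Versions of these tools, the annotation release and the strand setting are not given in the sources used here. Reads outside genes or shared by overlapping genes (6.72% to 8.32% per library) stayed out of library sizes. Of 50600 IDs, 50376 matched GENCODE M21 (GRCm38).

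Groups came from the labels. Counts were fitted with edgeR 4.0.16 (R 4.3.3; TMM, filterByExpr, robust quasi-likelihood, all 12 libraries, 16052 genes tested), with Benjamini-Hochberg adjustment over all of them, and the script was tested on simulated data. All 10 genes passed the filter, 9 of them only through KO and ALKKO. P-values measure the spread between these mice, and a floor of 3 counts covers the error of counting alone. Alternatives were DESeq2 1.42.0, its size factors, no filter, at least 10 counts in every library, fits of the compared groups alone, a replicate block and leaving out each library. The genes and the lists were chosen with earlier results of these data known. Named were all 10 genes, called or nearest neighbours, called genes of each list up to 4 in each direction (otherwise those of highest mean), and the 8 genes of most similar profile; Syce1, Uhrf1, Ccnb2, Lmntd1, Gm16156, Dpep2 and the genes of the pattern scan outside the set were also named after their values were seen. Proteins were not used here.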

Additional observations from a re-analysis of the deposited data

How the results depend on the processing

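For ALKKO against KO, the log2 fold changes of the 10 genes were above 0 under every alternative that gave a value, and 0 of them were called in each edgeR alternative, against 3 with DESeq2's Wald test. All 10 kept every ALK library below every KO and ALKKO library on each scale tried, and 0 neighbours were called in Dnmt1-deleted libraries under any alternative, also within 100000 bases. The number called higher in ALK against Ctrl, 1, was 0 with no filter, with at least 10 counts in every library (where Noct alone was left) and with only the compared groups, and 0 to 1 without 1 library. The germline list, 0 called higher in deleted libraries, gave 2 with DESeq2, 1 with only the compared groups and 0 to 1 without 1 library (1 without ALK1 or ALK3). Over all genes, calls were 3281 in ALK against Ctrl, 29 in ALKKO against Ctrl, 1 in ALKKO against KO, 9 in deleted libraries against Ctrl and 3 in KO against Ctrl. In that order, at least 10 counts in every library gave 1756, 1, 0, 1 and 0, DESeq2 3969, 98, 24, 67 and 42, only the compared groups 2586, 98, 1, 24 and 0, and leaving out 1 library 2130 to 3787, 5 to 34, 1 to 2, 3 to 12 and 0 to 4. With the replicate block the calls were 2911, 5, 1, 5 and 0; same-numbered libraries correlated between -0.106 and 0.426, so the numbers do not pair the mice, and the block moved no count of the 10 genes in ALK against Ctrl or ALKKO against KO, nor of their neighbours or the germline list in deleted libraries against Ctrl; the 10 genes were not counted under the block in the comparisons with Ctrl by which they were picked. The cause of these shifts was not tested. Counts of 0 to 6 reads in Ctrl and ALK limit what can be seen between those groups.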
